A study of Homo sapiens with 6 samples.

Results

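Of the 18132 genes measured on these arrays, 9 form 3 small groups of interferon-linked neighbours: the paralogs SAMD9 and SAMD9L on chromosome 7, the nuclear body genes SP100, SP110, SP140 and SP140L on chromosome 2, and PARP9, DTX3L and PARP14 on chromosome 3. They were taken by gene symbol with every probe set that carries it, 39 of 49372 probe sets, of which 38 carry 1 symbol and 1 is shared by SP140 and SP140L. The genes were picked with the difference between the groups in view, since SAMD9, SP110 and PARP9 stood among the larger ones, so that difference is described here and not tested for any of them. NCI-H929, the source given for all 6 samples, is an established line from a human multiple myeloma, and each sample went onto 1 Affymetrix array. The 3 PRMT5_down samples carried a lentivirus against PRMT5, which places symmetric dimethyl marks on arginines, and the 3 control samples carried a control lentivirus. The labels call the vectors sponges, while the treatment protocol names a short hairpin RNA in pLKO.1 with puromycin selection at 1 μg/mL, and all cells were collected at a single time. The study asked which genes PRMT5 may act on. Separate cultures are not mentioned for the replicates, so a p-value here covers the variation of these arrays alone, possibly technical.

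Interferons signal through surface receptors and JAK kinases to STAT and IRF factors, which bind short elements in the promoters of target genes. The products of such genes block viruses at several steps and mark infected cells. SAMD9 and SAMD9L encode large cytoplasmic proteins that restrict poxviruses and slow cell growth, and inherited variants of both are known from bone marrow failure. SP100 is a resident of PML nuclear bodies, the chromatin-linked dots that rise in number after interferon. Its relatives SP110, SP140 and SP140L share its domains, and SP140 is known as a reader of chromatin in lymphoid and myeloid cells. PARP9 pairs with the ubiquitin ligase DTX3L, and PARP14 is an ADP-ribosyltransferase with macrodomains that sits close to them on the chromosome.

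PRMT5, the targeted gene, was lower in PRMT5_down, with log2 signals of 8.63, 9.65 and 9.37 against 9.93, 10.35 and 10.30 in control replicates 1, 2 and 3. The difference was -0.98 (SE 0.28, and 0.12 with the replicate number as a block). Unless the block is named, the SE of a group difference comes from the fit without it. The 2 groups did not overlap, and a permutation of the arrays (exact, two-sided) returned p = 0.1, its lowest possible value at this size. Over all genes limma called none between PRMT5_down and control, 0.0% of 18132 at an adjusted p under 0.05, while 149 (0.822%) had an unadjusted p under 0.05. With the replicate number as a block limma again called none, and 1497 (8.26%) had an unadjusted p under 0.05. Array medians lay between 5.29 and 5.32. The background, set on each array at the 95th percentile of 333 olfactory receptor genes, was 4.89 to 5.01, and 56.3% of genes exceeded it on all 6 arrays. Of 13 plasma cell markers, 4 were above background on all 6 arrays (SDC1, PRDM1, XBP1 and IGHA1) and 8 on none, CD38, TNFRSF17, IRF4 and MZB1 among them, while FGFR3, NSD2 and CCND2, known from t(4;14) myeloma, were above it on all 6. All 8 measured erythroid markers were also above it on all 6, as were CD79A and PAX5 of B cells, LYZ, CSF1R and CD68 of monocytes, ITGA2B and GP9 of megakaryocytes and CD3D and NKG7 of T and NK cells. At the 99th percentile of the same olfactory receptor genes, XBP1 alone of the 4 plasma cell markers was still above on all 6 arrays. SDC1, PRDM1, IGHA1, CD79A, CSF1R, GP9 and NKG7 were above that level on no array. HBZ, ALAS2, GATA1, KLF1 and TFRC were above it on all 6, as were FGFR3, NSD2, CCND2, PAX5 and LYZ. The plasma cell and erythroid markers thus went in part against the labelled line, whose identity was not tested. The values below hold for the cells as labelled. For the erythroid list the groups also differed. Its summed log2 signal was 79.0, 75.3 and 76.8 in PRMT5_down and 74.6, 72.1 and 71.1 in control, so the groups did not overlap, and the median difference of its genes was 0.39. The part of these markers in the differences below was not tested. In such bulk samples fewer cells of a type and less RNA per cell cannot be told apart.

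SAMD9 had the greatest difference of the 9 genes, from signals near or under background. Its only probe set read 5.53, 4.60 and 5.11 in PRMT5_down replicates 1, 2 and 3 and 4.13, 4.11 and 3.71 in the control ones. Every PRMT5_down array lay above every control array, but only PRMT5_down replicates 1 and 3 were above background, and no control array was. SAMD9 averaged 5.08 ± 0.47 in PRMT5_down and 3.98 ± 0.24 in control (SD, n = 3 each). The difference of these log2 means was 1.10 (SE 0.26). In replicate numbers 1, 2 and 3, SAMD9 was 2.64-, 1.40- and 2.64-fold higher in PRMT5_down, differences of 1.40, 0.49 and 1.40. Ranked among all genes from the highest difference down, that put SAMD9 at place 7, 41 and 8 in the 3 numbers. With 1 array left out in turn the mean difference stayed between 0.87 and 1.34. Signals under background compress a difference, and the level in control is only bounded by it.

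SAMD9L, the neighbour and paralog, showed no signal above background in any of its 4 probe sets on any array. Its brightest probe set read 3.93, 4.21 and 4.22 in PRMT5_down and 3.90, 4.15 and 4.21 in control, a difference of 0.03 (SE 0.13). Over the 4 probe sets the differences ran from -0.08 to 0.04. At these levels a difference in SAMD9L was not detectable.

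The start of SAMD9 is shown because it holds the best known interferon element. The promoter table of RefSeq (GRCh38.p14) gives 250 bases before and 50 after each start, and all 9 genes matched it. The interferon-stimulated response element was searched on both strands as GAAA, any 2 bases, GAAA. Its match in SAMD9 begins at position -136 from the start, on the minus strand of chromosome 7 (chr7:93118071-93118150), with the match in capitals. None was found in the SAMD9L window.
SAMD9: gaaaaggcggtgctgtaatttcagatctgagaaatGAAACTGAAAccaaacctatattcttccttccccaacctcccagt
These letters occur in 3.57% of all 35116 promoters of the table, at 4.38% of its genes, and in 27 of the 38 interferon-stimulated genes of the list below that have a promoter there. A match of letters describes the sequence and does not show binding.

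**Figure D1:**
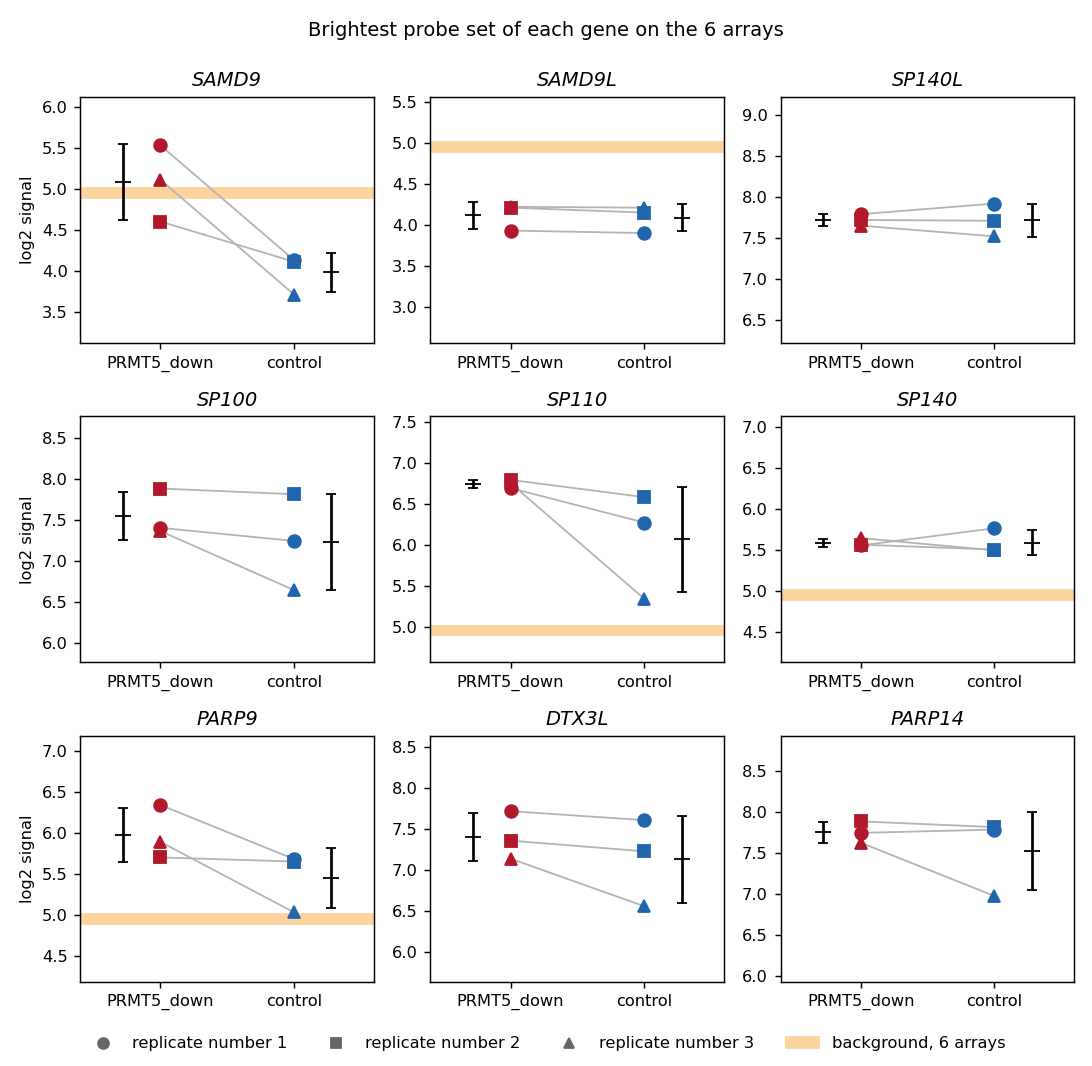
Log2 signal of the brightest probe set of each of the 9 genes on the 6 arrays, PRMT5_down left and control right, with lines joining equal replicate numbers, bars for mean ± SD (n = 3 each) and a band for the background of 4.89 to 5.01. Each panel spans 3 log2 units. SAMD9 straddles the background, SAMD9L lies under it, and in every panel but that of SAMD9L the control array of replicate number 3 is the lowest.

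SP110 encodes a nuclear body protein linked to immunodeficiency with hepatic veno-occlusive disease. It was higher in PRMT5_down by its brightest probe set, with 6.69, 6.79 and 6.75 in PRMT5_down against 6.27, 6.58 and 5.34 in control. The SD was 0.05 over the PRMT5_down arrays and 0.65 over the control arrays, where control replicate 3 stood 0.93 and 1.24 below the other control arrays. The mean difference was 0.68 (SE 0.31), made of 0.42, 0.21 and 1.41 in replicate numbers 1, 2 and 3. It was 0.32 without control replicate 3 and 0.94 without control replicate 2, the ends of the range with 1 array left out. The other 4 SP110 probe sets, none above background on all 6 arrays, differed by 0.08 to 0.58. A second one, at 5.71, 5.85 and 5.63 in PRMT5_down and 5.13, 5.49 and 4.83 in control, also kept the groups apart.

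SP100, which represses incoming viral genomes from the nuclear bodies, had 9 probe sets, 5 of them above background on all 6 arrays. The brightest read 7.40, 7.88 and 7.36 in PRMT5_down and 7.24, 7.81 and 6.64 in control. The groups overlapped, and only replicate number 3 differed by more than 0.2, at 0.72 against 0.16 and 0.07 in numbers 1 and 2. The mean difference was 0.32 (SE 0.31). With 1 array left out it ran from 0.02, without control replicate 3, to 0.61, without control replicate 2, and without both arrays of number 3 it was 0.12. All 9 probe sets were higher in PRMT5_down in each number, with mean differences of 0.15 to 0.32. Probe sets of 1 gene share the same RNA and arrays, so they do not add replicates.

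SP140 and SP140L differed little. SP140 read 5.56, 5.57 and 5.65 in PRMT5_down and 5.77, 5.51 and 5.50 in control, a difference of 0.00 (SE 0.10), and 4 of its 5 probe sets were above background on no array. SP140L read 7.79, 7.72 and 7.65 in PRMT5_down and 7.92, 7.71 and 7.52 in control, also 0.00 (SE 0.12). The probe set that both genes share differed by -0.14, -0.16 and 0.47 in replicate numbers 1, 2 and 3. Names ending in _x_at mark probe sets that can also bind other transcripts, which holds for the brightest ones of SP140 and SP140L, so the 2 genes may not be cleanly separated.

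The starts of the SP genes are shown because they carry one shared element with an extra base of spacing. SP110 and SP140 face away from each other, and their promoter windows overlap by 199 bases. No match with 2 free bases was found in any window of the 4 genes. After these sequences were read, a wider form was searched on both strands, GAAA, any 3 bases, GAAA. It occurs in 2.86% of all promoters, at 3.54% of all genes, in 6 of the same 38 interferon-stimulated genes, and at SP110, SP140 and SP140L. The SP110 and SP140 windows share the same match (chr2:230225726-230225736), and SP110 has a further one in its other promoter. The SP100 and SP140L promoters are 89.6% identical over 279 aligned columns. At the aligned place SP100 has 1 substitution, T9C, counted from 1 at the left end of the 11 capitals, which removes the match. SP110 is printed from the minus strand (chr2:230225692-230225771), and SP140L (chr2:230327071-230327150) and SP100 (chr2:230416102-230416181) from the plus strand, where the element reads in reverse.
SP110: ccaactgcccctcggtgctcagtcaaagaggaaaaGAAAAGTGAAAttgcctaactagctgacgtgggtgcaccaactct
SP140L: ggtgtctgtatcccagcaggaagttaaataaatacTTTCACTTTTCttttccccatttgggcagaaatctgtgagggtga
SP100: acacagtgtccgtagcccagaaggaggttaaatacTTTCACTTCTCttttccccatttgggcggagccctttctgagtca
SP110, SP140 and SP140L hold the wider form and had differences of 0.68, 0.00 and 0.00. SP100 lacks it and had 0.32.

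PARP9, a PARP family member that works in complex with DTX3L, was higher in PRMT5_down by its brightest probe set. It read 6.34, 5.70 and 5.89 in PRMT5_down and 5.68, 5.65 and 5.03 in control. The groups did not overlap, although PRMT5_down replicate 2, at 5.70, and control replicate 1, at 5.68, nearly met. Its mean difference of 0.52 (SE 0.24) came from 0.66, 0.05 and 0.86 in replicate numbers 1, 2 and 3, and ran from 0.31, without control replicate 3, to 0.66, without PRMT5_down replicate 2. Of the other 2 PARP9 probe sets, 1 exceeded background on every array and differed by 0.05, and 1 exceeded it on none and differed by 0.33.

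DTX3L, the ubiquitin ligase partner, read 7.72, 7.36 and 7.14 in PRMT5_down and 7.61, 7.23 and 6.56 in control. It was higher in PRMT5_down in each replicate number, by 0.11, 0.13 and 0.58, but the groups overlapped. The mean difference was 0.27 (SE 0.29). With 1 array left out it ran from -0.01, without control replicate 3, to 0.51, without control replicate 1. Number 3 was low in both groups, so leaving out its control array alone lowers the difference, and without both of its arrays DTX3L was 0.12 higher. The 3 DTX3L probe sets differed by 0.27 to 0.42.

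PARP14, which modifies proteins with single ADP-ribose units and is known as a partner of STAT6, showed its difference in replicate number 3. It read 7.75, 7.89 and 7.63 in PRMT5_down and 7.79, 7.82 and 6.98 in control. Within the numbers it differed by -0.04, 0.07 and 0.65, a mean of 0.23 (SE 0.24). With 1 array left out the mean ran from -0.05, without control replicate 3, to 0.37, without control replicate 2, and it was 0.02 without both arrays of number 3. The 6 PARP14 probe sets differed by 0.00 to 0.35, and of the 4 above background on all 6 arrays, 3 differed by over 0.5 in number 3.

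The shared start of PARP9 and DTX3L and that of PARP14 are shown because each holds the interferon element. PARP9 and DTX3L run in opposite directions, and their promoter windows overlap by 137 bases. Both windows contain the same match (chr3:122564332-122564341), at position -41 from one PARP9 start and from -6 on at DTX3L. In PARP14 the match begins at -29, next to a gamma-activated site searched as TTCNNNGAA (7.66% of all promoters), which begins at -40. SP110 has that site too, in its other promoter, beginning at -38. DTX3L (chr3:122564297-122564367) and PARP14 (chr3:122680775-122680854) are printed from the plus strand, with the interferon element in capitals.
DTX3L: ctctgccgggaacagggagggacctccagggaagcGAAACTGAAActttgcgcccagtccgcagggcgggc
PARP14: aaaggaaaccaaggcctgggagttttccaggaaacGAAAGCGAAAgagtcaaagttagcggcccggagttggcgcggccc
Of the 9 genes, SAMD9, PARP9, DTX3L and PARP14 hold the form with 2 free bases. Their differences were 1.10, 0.52, 0.27 and 0.23. SP110, SP100, SAMD9L, SP140 and SP140L lack it and had 0.68, 0.32, 0.03, 0.00 and 0.00.

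Control replicate 3 was the lowest array for most of the genes, which were picked on a contrast that favours low control arrays. It was the lowest of the 6 for 8 of the 9. The share was 19.3% of all genes and 27.4% of those above background on all 6. For SP140 it read 5.50, beside 5.51 in control replicate 2. Control replicate 3 was also lowest for 15 of the 16 probe sets above background on all 6 arrays. Of these 16, 5 belong to SP100 and 4 to PARP14. Background was exceeded on all 6 arrays by 7 of the 9 genes and on none by 1, against 56.3% and 37.7% of all genes. In number 3, 6 of the 9 genes were at least 0.5 higher in PRMT5_down, as were 3.07% of all genes. Among those above background on all 6 arrays it was 5 of 7, as for 4.41% of all such genes. All 3 numbers went higher for 6 of the 9, as for 11.7% of all genes. SAMD9 and PARP9 were that much higher in number 1, where 1.99% of all genes were, and none of the 9 was in number 2, where 0.221% were. The groups did not overlap for SAMD9, SP110 and PARP9, with PRMT5_down higher, as for 1.26% of all genes. The choice of genes used this contrast, so nothing is read from these counts. Over the means, 3 genes were at least 0.5 higher, as were 0.336% of all genes. SAMD9 alone was without control replicate 3 (0.524% of all genes) and without both arrays of number 3 (0.331%). SP110 and PARP9 also lay under 0.5 with the mean of probe sets, at 0.34 and 0.30, and with array weights, at 0.49 and 0.28. The median of the 9 was 0.27 with all arrays, 0.02 without control replicate 3 and 0.12 without both arrays of number 3, beside -0.02, -0.01 and -0.02 for all genes. With the replicate block the SE of the difference was 0.17 for SAMD9, 0.08 for SAMD9L, 0.13 for SP100, 0.20 for SP110 and 0.09 for SP140. It was 0.09 for SP140L, 0.15 for PARP9, 0.11 for DTX3L and 0.13 for PARP14, and these differences were not tested. Whether the difference itself varies between replicate numbers could not be tested, as each number has 1 array per group.

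**Figure D2:**
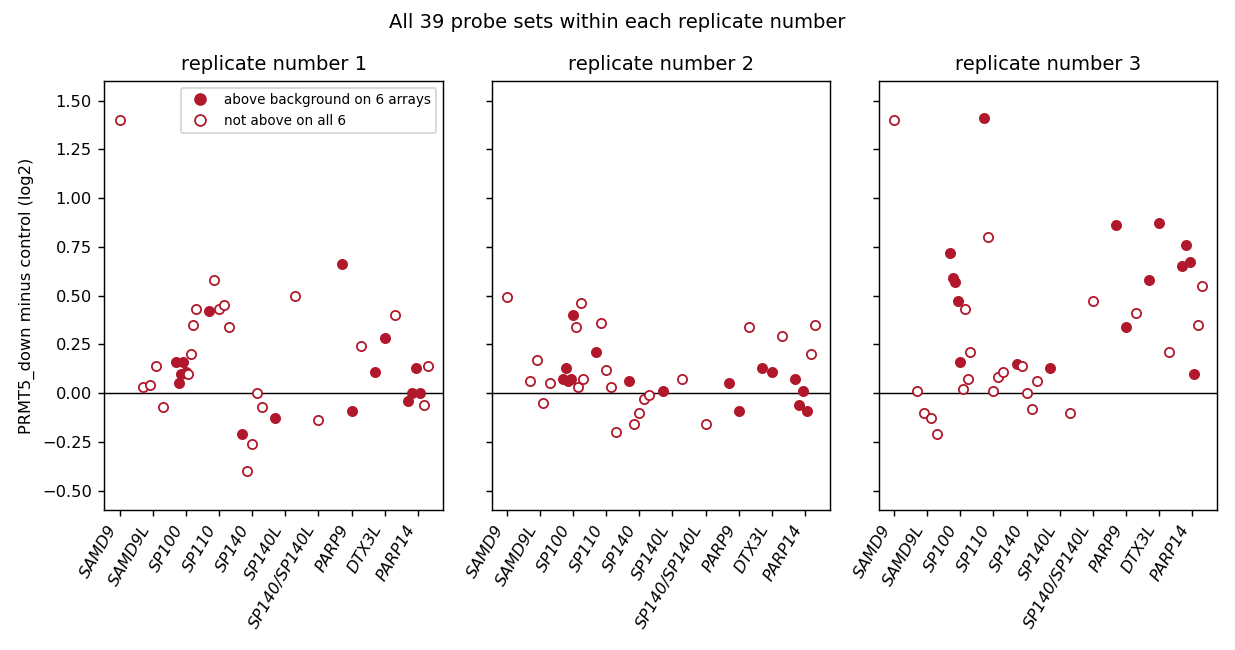
PRMT5_down minus control in log2 units for all 39 probe sets, by gene, in replicate numbers 1, 2 and 3. Filled points are above background on all 6 arrays (16 probe sets), open points are not. In number 2 all 39 stay under 0.5, and in number 3 the filled points of SP100, SP110, PARP9, DTX3L and PARP14 reach 0.16 to 1.41, with 1 PARP14 probe set at 0.10.

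Levels also differed between the replicate numbers that both groups share, a contrast that the choice of genes did not use. A limma F-test of the number with group as covariate called DTX3L (adjusted p = 0.0067) and SP100 (adjusted p = 0.011), 2 of 9 genes, where 35.1% of all genes were called. The share was thus not above that of all genes. DTX3L was lowest in number 3 in both groups, with number 1 above number 3 by 0.82 and number 2 above it by 0.45 (SE 0.13). SP100 was highest in number 2, above number 3 by 0.85 and above number 1 by 0.53 (SE 0.16). PARP14 missed (limma adjusted p = 0.057), and so did SAMD9L (0.071), PARP9 (0.10), SP110 (0.17), SP140L (0.19), SAMD9 (0.20) and SP140 (0.69). Tested as single probe sets, 6 of 39 were called by limma, 2 of SP100, 2 of DTX3L and 1 each of SP140L and PARP14, where 33.5% of all probe sets were. With any 1 array left out limma called 0 genes at an adjusted p under 0.05, since 1 residual degree of freedom remains, and 5284 to 6808 at an unadjusted p under 0.05. The SP100 call ended with the mean of its probe sets (limma adjusted p = 0.12).

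**Figure D3:**
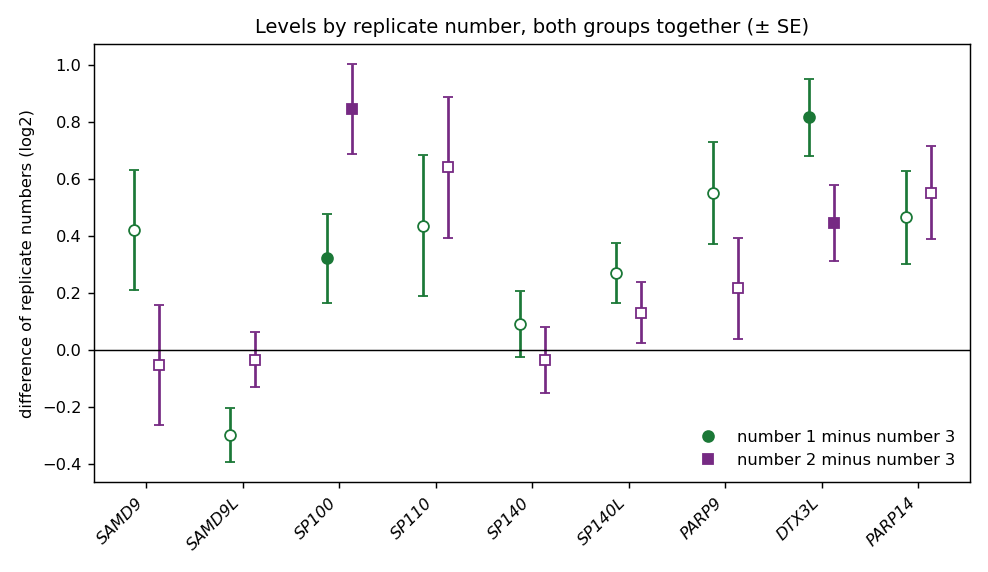
Difference in log2 signal of replicate numbers 1 and 2 from number 3, fitted over both groups, for the 9 genes, with bars of 1 SE (3 numbers, 2 arrays each). Filled symbols mark SP100 and DTX3L, the genes called by limma, and number 3 is lowest in SP100, SP110, SP140L, PARP9, DTX3L and PARP14.

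Genes next to the 3 groups were measured to see whether differences stopped at them. Of 19 neighbouring protein-coding genes, placed by the RefSeq gene order, 17 were measured, 10 higher and 7 lower in PRMT5_down. Over all 18132 genes, 7844 were higher and 10057 lower. The neighbours had a median difference of 0.05 and 0 called by limma, as for 0.0% of all genes. HEPACAM2, an adhesion-type protein gene next to SAMD9L, was the only neighbour at least 0.5 higher. It read 6.55, 4.97 and 5.13 in PRMT5_down and 4.89, 4.83 and 3.71 in control, with 3 arrays above background, all of PRMT5_down. The groups did not overlap, and its difference of 1.07 (SE 0.52), 0.69 without control replicate 3, did not pass (limma adjusted p = 1). In replicate numbers 1, 2 and 3 HEPACAM2 differed by 1.66, 0.14 and 1.42, beside 1.40, 0.49 and 1.40 for SAMD9. Between them lies SAMD9L, at 0.03, 0.06 and 0.01 and under background. On the other side CDK6, the cell cycle kinase, differed by 0.05 (SE 0.41). PARP15, between DTX3L and PARP14, was above background on no array and differed by -0.06. Leaving out HEPACAM2, the measured neighbours ranged from -0.14 to 0.25.

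**Figure D4:**
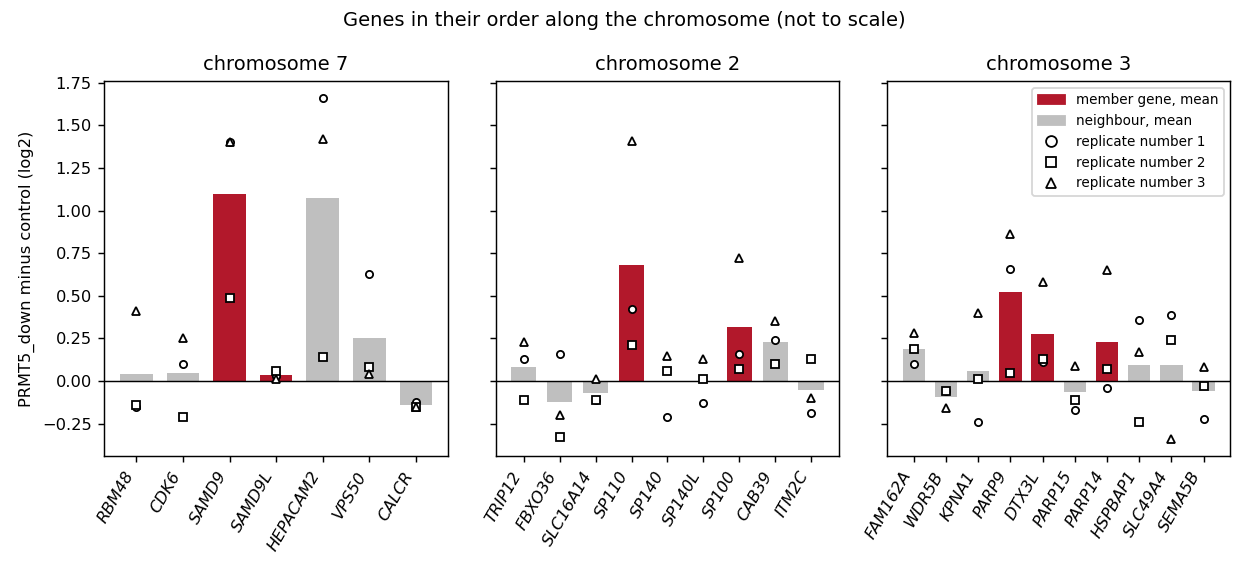
PRMT5_down minus control in log2 units for the 9 genes (red bars, mean of 3 arrays per group) and their 17 measured neighbours (grey bars) in chromosomal order, not to scale, with symbols for replicate numbers 1, 2 and 3. HEPACAM2 at 1.07 stands beside SAMD9 at 1.10, and SAMD9L between them is at 0.03.

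Other interferon-stimulated genes lay on both sides of 0. Of 46 listed, 45 were measured, 21 higher and 23 lower in PRMT5_down, with a median of -0.01 beside -0.02 for all genes, and 0 called by limma either way (0 at an unadjusted p under 0.05). With the replicate block limma also called 0, but an unadjusted p under 0.05 was reached by 10 of the 45 (8 higher, 2 lower), beside 8.26% of all genes. Among the 22 above background on all 6 arrays, 12 were higher, with a median of 0.11. Of all 10215 genes above it there, 5116 were higher, with a median of 0.0033. The 4 with the smallest p, none of which passed, were IFIT3 at -0.22 (SE 0.10), IFI44 at 0.17 (SE 0.08), IFIT2 at -0.20 (SE 0.11) and ISG15 at 0.38 (SE 0.23). Of these, only ISG15, the ubiquitin-like modifier, was above background. It read 8.93, 9.43 and 9.41 in PRMT5_down and 8.47, 9.17 and 8.99 in control. Differences over the list ran from -0.31 to 0.85. The highest was that of IFIH1 (SE 0.73), made of 1.13, 0.04 and 1.39 in replicate numbers 1, 2 and 3. IFIH1 was above background on 2 arrays, and control replicate 3 was its lowest. In number 3, 5 of the 45 were at least 0.5 higher in PRMT5_down, beside 3.07% of all genes.

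Receptors and signal carriers of interferon were close to level. The 15 measured ones split into 8 higher and 6 lower, around a median of 0.01, with 0 called by limma (0 at an unadjusted p under 0.05, and 1 with the replicate block). IFNGR2, a chain of the interferon gamma receptor, differed by -0.15 (SE 0.08), IFNGR1 by 0.10 (SE 0.15), the transcription factor gene IRF1 by -0.11 (SE 0.19) and the kinase gene JAK1 by -0.11 (SE 0.19). Without control replicate 3, IFNGR1 turned to -0.02 and IRF1 to 0.04, and JAK1 was at -0.24. That setting leaves PRMT5_down replicate 3 without its pair, so a level shared by number 3 enters the difference. In replicate numbers 1, 2 and 3, IFNGR1 differed by 0.01, -0.20 and 0.49 and IRF1 by -0.07, -0.11 and -0.16. JAK1 differed by -0.09, -0.19 and -0.06.

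Relatives of PARP9 and DTX3L had 7 of 15 PARP enzymes and 1 of 4 DELTEX ligases higher, with medians of -0.01 and -0.09 and 0 called by limma (0 at an unadjusted p under 0.05). With the replicate block ZC3HAV1 alone had an unadjusted p under 0.05. ZC3HAV1, the zinc finger antiviral protein of the PARP family, differed by 0.40 (SE 0.21), made of 0.36, 0.02 and 0.82 in replicate numbers 1, 2 and 3, and by 0.22 without control replicate 3. PARP11 differed by 0.20 (SE 0.14), PARP16 by -0.14 (SE 0.13) and PARP4 by 0.12 (SE 0.17). Of the ligases, DTX4 differed by -0.13 (SE 0.11), DTX2 by -0.16 (SE 0.22), DTX3 by -0.05 (SE 0.10) and DTX1 by 0.04 (SE 0.19). In replicate numbers 1, 2 and 3, DTX2 differed by -0.04, -0.03 and -0.40. It was at 0.07 without control replicate 3, which breaks a pair.

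Partners of the nuclear bodies included 11 of 13 genes higher, by a median of 0.06, with 0 called by limma (0 at an unadjusted p under 0.05, and 2 with the replicate block, ATRX and MORC3). All 13 were above background on all 6 arrays, and of the 10215 genes above it there, 5116 were higher. The median was -0.02, 0.06 and 0.16 in replicate numbers 1, 2 and 3. It was -0.02 without control replicate 3 and -0.005 without both arrays of number 3. MORC3, a body-resident ATPase, differed by 0.33 (SE 0.25), SUMO3 by -0.08 (SE 0.10), the histone chaperone gene DAXX by 0.15 (SE 0.19) and UBN1 by 0.07 (SE 0.09). Other genes with a SAND domain, the DNA-binding fold of the SP proteins, had 2 of 4 higher and a median of -0.06. DEAF1 differed by -0.41 (SE 0.28), AIRE by -0.13 (SE 0.14), GMEB2 by 0.02 (SE 0.25) and GMEB1 by 0.01 (SE 0.31). In the PRMT5 complex 3 of 4 partners were higher, with a median of 0.12: RIOK1 differed by 0.21, CLNS1A by -0.18, WDR77 by 0.16 and COPRS by 0.08. Limma called none of these 8 genes, and 0 of them had an unadjusted p under 0.05, against 1, DEAF1, with the replicate block. Without control replicate 3, which breaks a pair, DEAF1 differed by -0.16, AIRE by -0.02, MORC3 by 0.10, RIOK1 by 0.01, WDR77 by 0.35 and COPRS by 0.27. In replicate numbers 1, 2 and 3, DEAF1 differed by -0.65, 0.10 and -0.68 and RIOK1 by 0.10, 0.04 and 0.48. WDR77 differed by 0.23, 0.19 and 0.07 and COPRS by 0.20, 0.09 and -0.06.

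**Figure D5:**
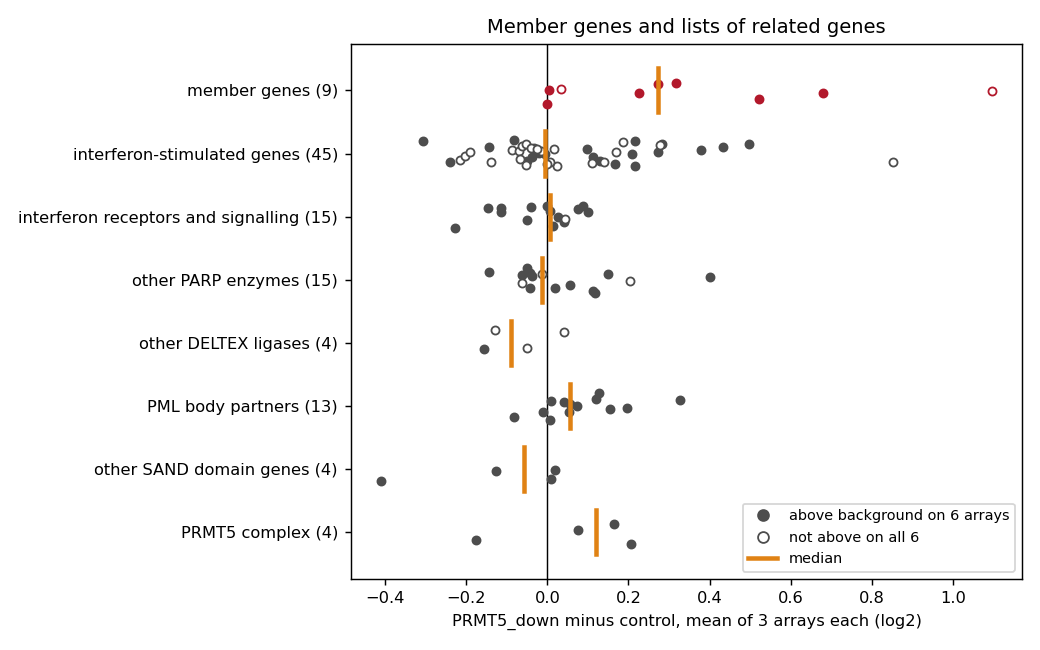
PRMT5_down minus control in log2 units, mean of 3 arrays each, for the 9 genes and 7 lists of related genes, with the number measured in brackets. Filled points are above background on all 6 arrays, and orange bars are medians. The 9 genes, picked on this contrast, have a median of 0.27, and the lists have medians from -0.09 to 0.12.

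The genes whose profile over the 6 arrays was closest to SAMD9, SP110 and PARP9 lay outside the 9. Likeness was the root mean square difference in log2 units after each gene's mean over the 6 arrays was subtracted, among 10908 genes. SAMD9, SP110 and PARP9 were picked for their difference on these same arrays. Genes close to them therefore share that difference by construction, and the ranks only describe. The measure is not scaled, so the size of a change counts as well as its shape. Closest to SAMD9 were TUBB1, the platelet beta tubulin (0.25), GTF2H1, a subunit of the repair and transcription factor TFIIH (0.27), and CA8 (0.30), with PARP9 at place 4 (0.31). For SP110 they were ATP10D, a lipid flippase gene (0.13), C2orf69 (0.19) and TENT5C, a poly(A) polymerase gene (0.20). SP100 stood at place 31 (0.25) and PARP14 at place 43 (0.26) from SP110. For PARP9 they were GTF2H1 (0.08), YPEL4 (0.10) and CA8 (0.10). DTX3L, which shares its promoter with PARP9, was at place 245 (0.21). GTF2H1 read 8.78, 8.13 and 8.29 in PRMT5_down and 7.92, 7.97 and 7.48 in control.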

How the data were processed

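Labelling started from 6 μg of total RNA per sample, per the labels, with 1 array for each of 3 PRMT5_down and 3 control samples. The authors deposited log2 values. Per the submitters' processing notes they were computed with RMA, of a version not given in the sources used here. This step evens out the arrays, which hides any shift common to most genes. The deposited values carry 2 decimals and were not changed.

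The table has 49372 probe sets: 79 controls, 44988 with 1 gene symbol, 1832 with several and 2473 not named here. Of the 44988, 44961 were matched to RefSeq by gene identifier. A gene's value was that of its single-symbol probe set with the highest mean over all 6 arrays (18132 genes). Precision is limited by having 3 arrays per group.

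Groups were compared in limma 3.58.1 under R 4.3.3 (lmFit, eBayes, Benjamini-Hochberg over all genes, threshold 0.05), and a moderated F-test compared the replicate numbers. Same-numbered arrays deviated together from their group means (r = 0.82, 0.72 and 0.79, minimum 0.1), so arrays of 1 number were treated as pairs. That rests on the data, and the planned fit has no block. The fits were run on simulated data. In the data for the group fits, replicate numbers did not differ, so the fit without a block was not tested under that variation.

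The 9 genes and all lists were chosen with earlier results of these data known. Genes named besides them followed a rule: PRMT5, 3 neighbours on each side and any between, and up to 4 genes of each list by smallest p. The rule also took the 3 closest profiles among genes above background on at least 3 arrays. IFIH1 was named outside the rule, as the highest difference of its list. Alternatives were the replicate block, left-out arrays, other probe set rules, filters, normalization, variance models and array weights. Protein sequences were not used here.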

Additional observations from a re-analysis of the deposited data

How the results depend on the processing

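The absence of calls between PRMT5_down and control held under 16 of 17 other settings. The exception was the replicate block with trend and robust, where limma called 3 genes, PRMT5 among them (-0.98, adjusted p = 0.029). The replicate block alone left 0 called, with 1497 at an unadjusted p under 0.05, and changed no call. With 1 array left out, 0 were called and PRMT5 stayed between -1.19 and -0.68. The F-test between replicate numbers called 16522 of 49293 when all probe sets were tested (more features), and 0 with any array left out (fewer samples). There the lowest adjusted p were 0.052 for DTX3L, SP100 and SP110. PARP14 was called with the lowest 30% of genes left out, after quantile normalization again and with trend and robust (limma adjusted p = 0.039, 0.044 and 0.047), and SP140L with the mean of its probe sets (0.014); the cause was not tested.

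Without control replicate 3 the differences were 0.02 for SP100, -0.01 for DTX3L, -0.05 for PARP14, -0.05 for SP140 and -0.10 for SP140L. For counts and lists that setting, and leaving out both arrays of number 3, were chosen after seeing the data. Median list differences moved to 0.11 for interferon-stimulated genes above background on all 6 arrays, to -0.023 for receptors and signalling with the mean of probe sets, and, without control replicate 3, to 0.04 for receptors and signalling and 0.031 for DELTEX ligases. Small medians also turned direction without control replicate 3 for SAND domain genes (0.04), PML body partners (-0.02) and interferon-stimulated genes (0.005). With the mean of probe sets they turned for interferon-stimulated genes (0.0067) and PARP enzymes (0.04). Leaving out control replicate 3 alone breaks its pair. Without both arrays of number 3 the medians were -0.08 for SAND domain genes, -0.03 for DELTEX ligases and -0.005 for receptors and signalling. They were -0.005 for PML body partners, -0.01 for interferon-stimulated genes, -0.01 for PARP enzymes and 0.11 for the PRMT5 complex. Above a background at the 99th percentile of olfactory receptor genes lay 2 of the 9 genes on all 6 arrays, SP140L and PARP14, against 7 at the 95th. The wider promoter element was also added later.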
